A study of Mus musculus with 6 samples.

Results

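RNA-seq of regulatory T cells (Tregs) sorted from the bone marrow (BM) of mice with chronic myeloid leukemia (CML mice) and of naive mice was examined for 9 genes of PI3K-AKT-mTOR signaling and its brakes. These were Pik3cd, Pik3r1, Pik3ip1, Inpp5d, Akt1, Akt2, Mtor, Rptor and Tsc1. They were chosen by name for their place in the pathway, with earlier results of these data known, so their counts beside those of all genes are descriptions, and they are 9 of the 36930 features listed for each library. All 6 animals had the strain and genotype Foxp3-DTR-GFP, with GFP and the diphtheria toxin receptor under control of Foxp3, and were at postnatal week 8. CML was induced in 3 mice by transfer of BCR-ABL1-GFP-carrying LSKs, a marrow fraction rich in stem and progenitor cells, without prior irradiation of these genetically matched hosts. Their Tregs were taken 15 days later. The labels name no treatment for the 3 naive mice. The study's methods give 3 mice per group, which matches 1 library per mouse. The CML hosts, not being irradiated, kept their own hematopoiesis, leukemic cells carried GFP too, and no control transplant is named for the naive mice, so leukemia and transplantation cannot be told apart in these groups.

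Class I phosphoinositide 3-kinases (PI3Ks) make the membrane lipid PIP3 after antigen receptor and cytokine receptor engagement. PIP3 recruits the AKT kinases, which relieve the TSC complex's hold on RHEB and so let the kinase complex mTORC1 work, and which keep FOXO transcription factors out of the nucleus. Tregs are known for their sensitivity to this pathway: they need some of its activity for activation and suppressive function, while too much of it destabilizes them. PIK3IP1, SHIP-1 (Inpp5d) and the TSC complex restrain the pathway at successive steps. The pathway is regulated mainly through phosphorylation, lipid levels and protein turnover, and the libraries measured transcripts alone.

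The values were taken as RPKM, reads scaled by feature length and by library size, a unit inferred from the values themselves. On that reading they could be compared between genes as levels per length. Estimated depth ran from 829181 to 7613827 reads in the CML libraries and from 5187987 to 9751911 reads in the naive libraries. CML replicate 2 was the least deep and stood apart, with 50.7% of its summed values in its 10 highest features, against 28.5% to 31.3% in the other 5 libraries. The Treg label was borne out by Foxp3, at 299 to 468 RPKM in CML and 297 to 367 RPKM in naive libraries, and by the other 7 of 8 Treg and T cell markers, all present. Transcripts that mark other cells were also found. Summed erythroid markers were 35.6 to 204 RPKM in CML and 5.01 to 29.6 RPKM in naive libraries, and summed neutrophil markers were 21.4, 212 and 218 RPKM in CML replicates 1, 2 and 3 against 30.4 to 60.4 RPKM in naive libraries. Summed B cell markers were 358 to 502 RPKM in CML and 484 to 629 RPKM in naive libraries, while the defining marker Pax5 was at 0 in all 6. The remaining lists overlapped between the groups, at 51.1 to 79.9 against 27.6 to 60.3 RPKM for CD8 and NK cells, 31.5 to 74.8 against 62.4 to 100.05 RPKM for monocytes and macrophages and 13.6 to 24.4 against 14.8 to 20.4 RPKM for stem and progenitor cells.

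Pik3ip1, Rptor and Pik3r1, the 3 genes with CML and naive values in separate ranges, are shown here with the 250 bases before their annotated start (RefSeq, GRCm38.p6). Each is read 5′ to 3′ on the gene's own strand, so that the 3 regions can be set side by side. Whether the 3 genes are regulated together was not tested. Capitals mark the GC box GGGCGG, in either orientation, to which SP1-family factors bind. All 9 genes were found in the promoter table.
Pik3ip1, chr11:3330481-3330730, plus strand: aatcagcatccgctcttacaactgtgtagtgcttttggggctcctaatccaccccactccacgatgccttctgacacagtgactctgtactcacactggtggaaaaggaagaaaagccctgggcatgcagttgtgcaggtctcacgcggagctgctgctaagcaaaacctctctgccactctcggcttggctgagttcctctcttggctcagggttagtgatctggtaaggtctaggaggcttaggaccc
Rptor, chr11:119602655-119602904, plus strand: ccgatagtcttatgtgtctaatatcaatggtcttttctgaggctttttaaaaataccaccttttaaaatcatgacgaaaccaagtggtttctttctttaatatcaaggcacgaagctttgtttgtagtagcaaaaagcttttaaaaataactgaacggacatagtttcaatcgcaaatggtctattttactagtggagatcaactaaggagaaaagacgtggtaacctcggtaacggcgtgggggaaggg
Pik3r1, chr13:101768218-101768467, minus strand: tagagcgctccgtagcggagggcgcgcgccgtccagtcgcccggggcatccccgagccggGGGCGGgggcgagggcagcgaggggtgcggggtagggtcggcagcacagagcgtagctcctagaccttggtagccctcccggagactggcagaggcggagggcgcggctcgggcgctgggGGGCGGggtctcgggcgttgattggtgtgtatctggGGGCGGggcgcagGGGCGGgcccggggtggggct
The 3 windows differed in composition, with 53.6% G and C bases before Pik3ip1, 37.6% before Rptor and 76.4% before Pik3r1, where 4 GC boxes stood. Pik3r1 had another annotated start, whose window (chr13:101692631-101692880) held 42.4% G and C bases and no GC box. The Pik3ip1 start of this table lies inside the gene model used for the coordinates below, which begins 5′ of it.

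Over the 16 windows of the 9 genes, the FOXO motif GTAAACA (reverse complement TGTTTAC) was found in 1, before Akt1 (chr12:112674885-112675134), and the palindromic E-box CACGTG in 0. Of the 32851 windows in the promoter table, 3.17% held that FOXO motif and 6.02% the E-box. GC boxes were in 6 windows of 5 of the genes, against 32.7% of all windows. These letters are absent from the Pik3ip1 and Rptor windows shown above, which says nothing of the factors.

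The comparison between BM Tregs of CML and naive mice asks how leukemia in the marrow goes with the Treg transcriptome. For this pathway the data show lower Pik3ip1 and Rptor in every CML library, with naive means 1.91 and 1.94 times the CML means. Point estimates for the catalytic subunit Pik3cd, the AKT kinases, Mtor and Tsc1 were nearer to 0, from −0.26 to 0.26 on the log2 scale, with intervals that include 0. In limma fits across 13923 genes, 0 of the 9 genes passed an adjusted p of 0.05 (Benjamini-Hochberg) with a fold of at least 1.5, a rule that called 0.172% of all genes tested, and 0.129% in the lower direction. At an unadjusted p under 0.05 with the same fold, 2 of 9 passed, Pik3ip1 and Rptor, both lower in CML. That rule called 8.55% of all genes tested, and 5.94% in the lower direction, while an unadjusted p under 0.05 at any fold was reached by the same 2 of 9 and by 9.68% of all. In 3 of 9 genes (Pik3r1, Pik3ip1 and Rptor) every CML library was below every naive library, as was the case for 12.2% of all genes tested, and the opposite was seen in 0 of 9, against 4.84% (17.1% in either direction). Of the 9 point estimates, 6 were lower and 3 higher in CML, and their median log2 fold change was −0.21, near the median of −0.18 over all genes tested. In sorted cells measured in bulk, fewer cells of a type and less RNA per cell cannot be told apart.

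**Figure D1:**
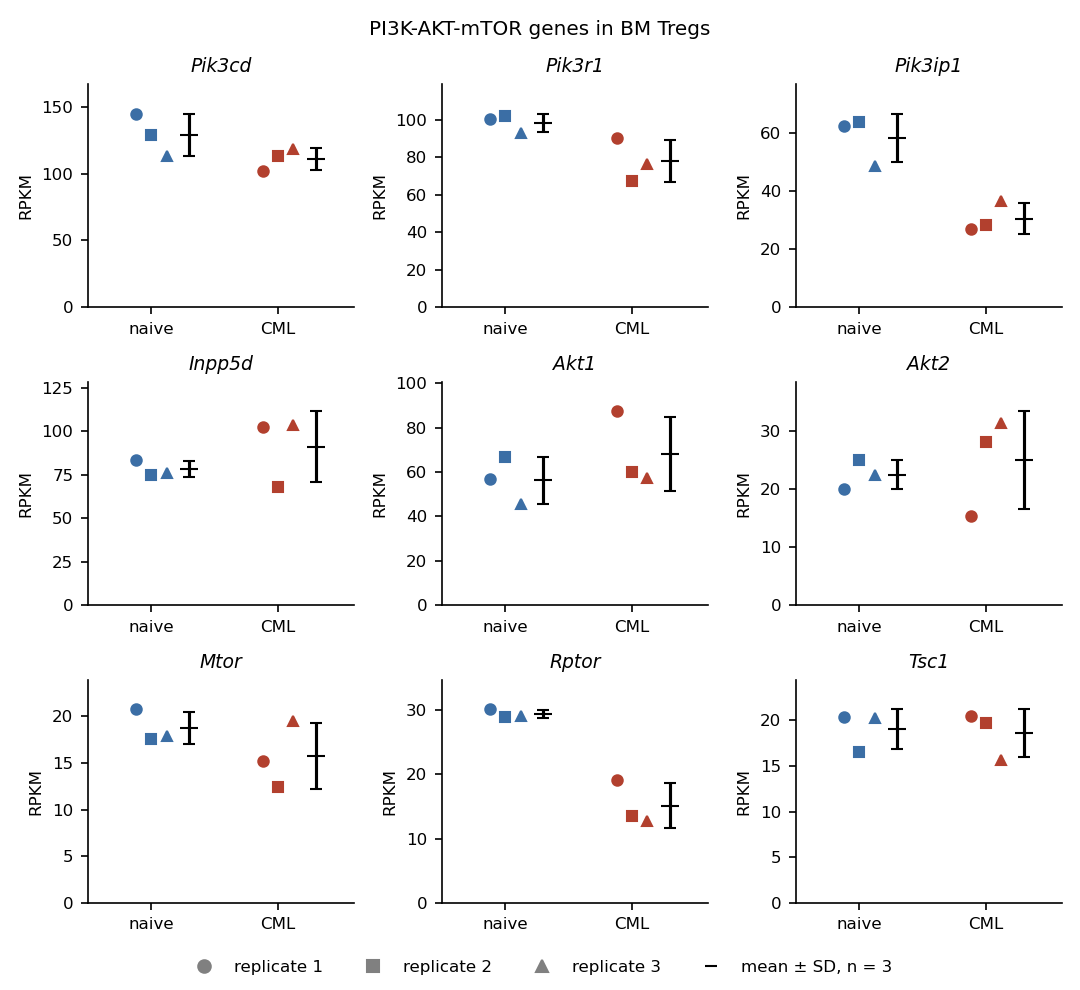
Levels of the 9 genes in RPKM, each panel with its own axis from 0; points are single libraries, coloured by group and shaped by replicate number, and bars give the mean ± SD of 3 mice. Pik3ip1 and Rptor sit in separate ranges (26.9 to 36.5 against 48.6 to 63.8 RPKM, and 12.7 to 19.2 against 29.0 to 30.2 RPKM), and Pik3r1 in adjoining ones, while the groups share a range in the other 6 panels.

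Pik3ip1 encodes a transmembrane protein that binds the catalytic subunits of PI3K and lowers their activity, and is thus a brake at the top of the pathway. The gene (ENSMUSG00000034614.14, protein coding, 6 exons in its longest transcript) lies at chr11:3330401-3342971 on the plus strand. It was at 26.9, 28.1 and 36.5 RPKM in CML replicates 1 to 3 and at 62.4, 63.8 and 48.6 RPKM in naive replicates 1 to 3. The highest CML library was below the lowest naive library. Means were 30.5 ± 5.23 RPKM in CML and 58.3 ± 8.39 RPKM in naive Tregs (SD, n = 3 each), which made the naive mean 1.91 times the CML mean. On the log2(RPKM + 1) scale the difference was −0.91 (SE 0.22, 95% interval −1.41 to −0.42, limma unadjusted p = 0.00294, adjusted p = 0.238). It therefore did not pass after correction, and 11.9% of all genes tested had a lower fold change. Within each library's own ranking of tested genes, Pik3ip1 stood at the 69.3 to 75.5 percentile in CML and at the 84.0 to 87.7 percentile in naive Tregs, so its place among other transcripts differed as well. CML replicate 1, which had the lowest Pik3ip1 level, had a summed neutrophil marker level of 21.4 RPKM, below the 30.4 to 60.4 RPKM of naive libraries, and a summed erythroid marker level of 122 RPKM, above their 5.01 to 29.6 RPKM, and the part of either in the Pik3ip1 difference was not tested. A transcript on the other strand, Gm12592, overlaps the gene, and as the library kit does not mark strand, its reads cannot be told apart from those of Pik3ip1.

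Inpp5d encodes SHIP-1, the phosphatase of blood cells that removes the 5-phosphate of PIP3. It lies at chr1:87620312-87720507 on the plus strand. Levels were 102, 67.8 and 104 RPKM in CML and 83.6, 74.7 and 76.1 RPKM in naive replicates 1 to 3. A pair of CML libraries stood above all naive libraries, and the shallow CML replicate 2 stood below them. The log2 difference was 0.20 (SE 0.21, 95% interval −0.28 to 0.67, limma adjusted p = 0.760). Without CML replicate 2 it was 0.39 (adjusted p = 0.330), and under 3 other scalings of the libraries, where every CML library was above every naive one, it was 0.25 to 0.28 (adjusted p = 0.553 to 0.595). Inpp5d and Pik3ip1 are both brakes on PIP3 signaling, and their point estimates lay on opposite sides of 0.

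Tsc1 encodes hamartin, which stabilizes its partner TSC2 in the complex that switches RHEB off. It lies at chr2:28641228-28691167 on the plus strand. Levels were 20.5, 19.7 and 15.7 RPKM in CML and 20.3, 16.5 and 20.3 RPKM in naive Tregs, with both groups in the same range. Means were 18.6 ± 2.58 and 19.1 ± 2.18 RPKM (SD, n = 3 each), and the log2 difference was −0.03 (SE 0.25, 95% interval −0.62 to 0.55, limma adjusted p = 0.973). Its sign turned under each of 3 other scalings, to between 0.03 and 0.08. The interval leaves room for a level in CML from 0.653 to 1.46 times that of naive mice.

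Pik3cd encodes p110δ, the catalytic subunit that carries most class I PI3K activity in T cells, and was the most abundant of the 9 transcripts, at the 95.4 percentile of mean levels. It lies at chr4:149649168-149702571 on the minus strand. Levels were 102, 113 and 119 RPKM in CML and 145, 129 and 113 RPKM in naive replicates 1 to 3. The groups overlapped from 113 to 119 RPKM. The middle CML library and the lowest naive library coincided at 113 RPKM, and CML replicate 3 stood above both. Means were 111 ± 8.31 RPKM in CML and 129 ± 16.03 RPKM in naive Tregs (SD, n = 3 each), with a log2 difference of −0.21 (SE 0.16, 95% interval −0.58 to 0.16, limma adjusted p = 0.694).

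Pik3r1 encodes p85α and its shorter forms, the regulatory subunits that stabilize p110 and hold it inactive until receptors are engaged. It lies at chr13:101680563-101768217 on the minus strand. Levels were 90.3, 67.6 and 76.5 RPKM in CML and 100.4, 102 and 93.1 RPKM in naive replicates 1 to 3. All CML libraries were below all naive ones, by a margin of less than 1 CML SD between the nearest pair. Means were 78.1 ± 11.4 and 98.6 ± 4.87 RPKM (SD, n = 3 each), a ratio of 1.26, and the log2 difference was −0.34 (SE 0.17, 95% interval −0.73 to 0.05, limma unadjusted p = 0.0800, adjusted p = 0.566). The interval includes 0.

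**Figure D2:**
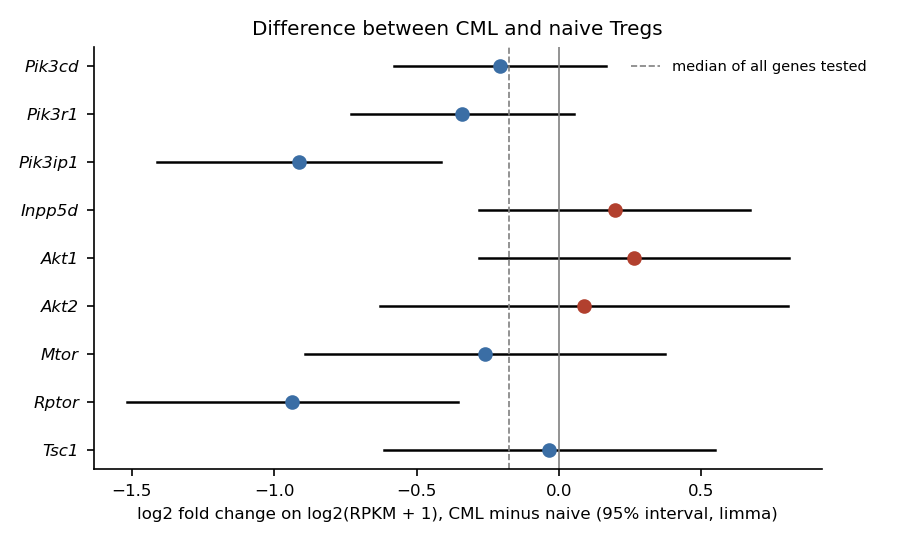
Log2 fold change of the 9 genes on log2(RPKM + 1), CML minus naive, with 95% intervals from limma; the dashed line is the median of all 13923 genes tested, −0.18. The intervals of Pik3ip1 (−1.41 to −0.42) and Rptor (−1.52 to −0.36) lie below both lines, and the other 7 intervals include 0.

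Akt1 and Akt2 encode serine/threonine kinases that carry the PIP3 signal onward. Akt1 (chr12:112653821-112674884, minus strand) was at 87.3, 59.9 and 57.2 RPKM in CML and at 56.8, 66.6 and 45.4 RPKM in naive replicates 1 to 3. Its CML mean of 68.2 ± 16.6 RPKM lay above the naive mean of 56.3 ± 10.6 RPKM (SD, n = 3 each) through CML replicate 1, and the other CML libraries were within the naive range. The log2 difference was 0.26 (SE 0.24, 95% interval −0.28 to 0.81, limma adjusted p = 0.719), and 0.07 without that library.

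Akt2 (chr7:27591552-27640826, plus strand) was at 15.3, 28.0 and 31.4 RPKM in CML and at 19.9, 25.1 and 22.5 RPKM in naive replicates 1 to 3. CML libraries stood on both sides of the naive range. Means were 24.9 ± 8.45 and 22.5 ± 2.57 RPKM (SD, n = 3 each), and the log2 difference of 0.09 (SE 0.31, 95% interval −0.63 to 0.80, limma adjusted p = 0.941) turned negative without CML replicate 2 (−0.02) or without CML replicate 3 (−0.10). CML replicate 1, high for Akt1 and low for Akt2, had an Akt1 to Akt2 ratio of 5.69, against 2.14 and 1.82 in the other CML libraries and 2.02 to 2.85 in naive ones. Akt1 was the more abundant of the pair in all 6 libraries.

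Rptor encodes raptor, the scaffold that brings substrates to mTOR in mTORC1 and sets that complex apart from mTORC2, which holds rictor instead. The gene (ENSMUSG00000025583.15, protein coding, 34 exons in its longest transcript) lies at chr11:119602905-119899576 on the plus strand. It was at 19.2, 13.5 and 12.7 RPKM in CML and at 30.2, 29.0 and 29.1 RPKM in naive replicates 1 to 3. The groups lay far apart, and the naive mice were nearly level with one another, with a coefficient of variation of 2.21% against 23.4% in CML. Means were 15.1 ± 3.55 RPKM in CML and 29.4 ± 0.651 RPKM in naive Tregs (SD, n = 3 each), which made the naive mean 1.94 times the CML mean. The log2 difference was −0.94 (SE 0.25, 95% interval −1.52 to −0.36, limma unadjusted p = 0.00602, adjusted p = 0.283), and 11.4% of all genes tested had a lower fold change. Rptor stood at the 49.1 to 60.6 percentile of its library in CML and at the 70.6 to 71.9 percentile in naive Tregs. An antisense transcript within the gene, Rptoros, was listed at 2.75, 0 and 0.711 RPKM in CML and at 3.59, 2.34 and 3.66 RPKM in naive replicates 1 to 3, and a pseudogene and a snoRNA also lie in the locus. Reads of the antisense transcript cannot be told apart from those of Rptor in libraries that do not mark strand.

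Mtor encodes the kinase that both complexes share. It lies at chr4:148448611-148557683 on the plus strand. Levels were 15.2, 12.5 and 19.5 RPKM in CML and 20.8, 17.6 and 17.9 RPKM in naive replicates 1 to 3, so CML replicate 3 fell within the naive range and the others below it. Means were 15.7 ± 3.55 and 18.7 ± 1.76 RPKM (SD, n = 3 each), with a log2 difference of −0.26 (SE 0.27, 95% interval −0.89 to 0.37, limma adjusted p = 0.762).

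The order of the 9 levels differed between the groups. In naive Tregs the order was Pik3cd, Pik3r1, Inpp5d, Pik3ip1, Akt1, Rptor, Akt2, Tsc1 and Mtor, and neighbours overlapped in range for Pik3ip1 with Akt1 and among the last 3. In CML Tregs Pik3cd, Inpp5d, Pik3r1 and Akt1 came first with overlapping neighbours, followed after a gap by Pik3ip1, Akt2, Tsc1, Mtor and Rptor, again with overlapping neighbours. By group mean, Rptor was sixth of the 9 in naive mice and last in CML mice, where it was the lowest of the 9 in CML replicate 3 but above Mtor in CML replicates 1 and 2.

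A ratio of 2 genes within a library is not changed by scaling that library with 1 factor, and is given as a description. The Pik3ip1 to Pik3cd ratio, brake against catalytic subunit, was 0.263, 0.249 and 0.308 in CML and 0.430, 0.494 and 0.430 in naive replicates 1 to 3. The groups did not overlap, and the mean log2 ratio was −1.88 ± 0.16 in CML and −1.15 ± 0.12 in naive Tregs (SD, n = 3 each). The Rptor to Rictor ratio, between the defining subunits of mTORC1 and mTORC2, was 0.763, 0.707 and 0.513 in CML and 1.23, 0.963 and 1.05 in naive replicates 1 to 3. Here too the groups did not overlap, at −0.62 ± 0.30 against 0.10 ± 0.18 on the log2 scale. The ratios of Pik3r1 to Pik3cd, Akt1 to Akt2 and Tsc1 to Mtor overlapped between the groups, with log2 differences of −0.14, 0.18 and 0.24.

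**Figure D3:**
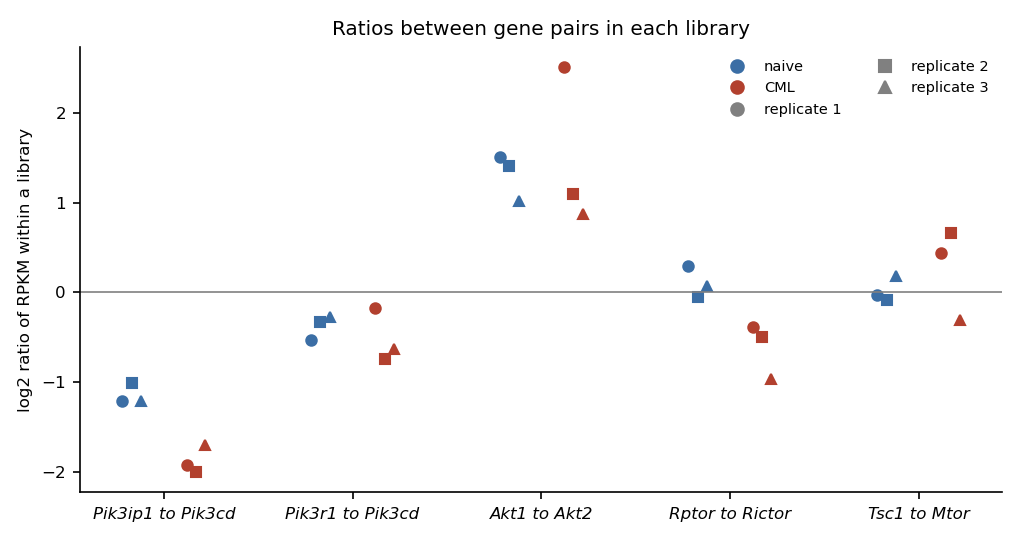
Log2 ratio of the RPKM of 2 genes within each library, for 5 pairs of genes, by group. Points are single libraries, coloured by group and shaped by replicate number. Pik3ip1 to Pik3cd and Rptor to Rictor are lower in all CML libraries (means −1.88 and −0.62) than in all naive libraries (means −1.15 and 0.10), and the other 3 pairs overlap.

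Pik3ip1 and Rptor were lower in CML under every one of 16 alternative analyses, which took in other pseudocounts, filters, library scalings and variance models and the removal of each library in turn. Pik3ip1 ranged from −1.05 to −0.83 on the log2 scale (limma unadjusted p = 0.00168 to 0.0173, adjusted p = 0.149 to 0.794), and Rptor from −1.11 to −0.79 (unadjusted p = 0.00315 to 0.0260, adjusted p = 0.174 to 0.798). CML replicate 2 was shallow, with an estimated 60 reads for Pik3ip1 and 74 for Rptor from the lengths of their longest transcripts, and without it the differences were −0.86 and −0.87 (limma adjusted p = 0.225 and 0.247). All genes tested had a median log2 difference of −0.18 with the deposited values and of −0.12 to −0.0059 under other scalings. Relative to −0.18, the differences were −0.74 for Pik3ip1 and −0.76 for Rptor, against −0.16 for Pik3r1, −0.03 for Pik3cd, −0.08 for Mtor, 0.14 for Tsc1, 0.27 for Akt2, 0.37 for Inpp5d and 0.44 for Akt1. The part that depth, or the erythroid and neutrophil transcripts given above, had in these differences was not tested.

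**Figure D4:**
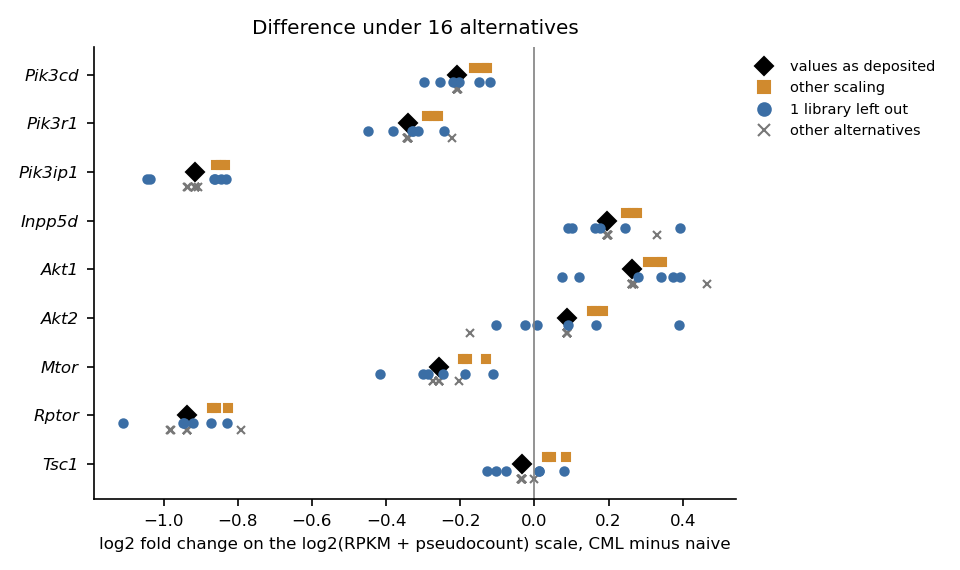
Log2 fold change of each of the 9 genes, CML minus naive, with the deposited values (diamonds), under 3 other scalings (squares), with 1 library left out (circles) and under the other alternatives (crosses). Pik3ip1 (−1.05 to −0.83) and Rptor (−1.11 to −0.79) stay far from 0, while Akt2 (−0.17 to 0.39) and Tsc1 (−0.13 to 0.08) lie on both sides.

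Around these genes, 94 others were grouped by role, of which 90 were tested. Klf2 and S1pr1 fell with an adjusted p under 0.05, 10 of 90 were lower and 1 higher at an unadjusted p under 0.05 with a fold of at least 1.5 (11.1% and 1.11%, against 5.94% and 2.61% of all genes tested), and the median log2 fold change was −0.16. Without the 9 FOXO-induced genes, 0 of 81 passed the adjusted threshold, and 6 were lower (7.41%) and 1 higher (1.23%) at the unadjusted one, with a median of −0.12. In 14 of 90 (15.6%) all CML libraries were below all naive ones, against 12.2% of all genes tested. Without the FOXO-induced genes this held for 9 of 81 (11.1%).

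Next to the PI3K subunits, 1 of 7 genes of the class I family and its adaptors had an unadjusted p under 0.05. This was Pik3r5, the p101 subunit that ties PI3Kγ to G proteins, at 20.9, 5.53 and 23.2 RPKM in CML and 34.4, 34.4 and 29.9 RPKM in naive Tregs (log2 difference −1.16, SE 0.49, limma adjusted p = 0.505). CML replicate 2 set most of that value, which was −0.56 without it. Among 7 phosphatase brakes, 1 passed the same rule. Inpp4b, which removes a phosphate from PI(3,4)P2 downstream of SHIP-1, was at 171, 167 and 140 RPKM in CML and 289, 306 and 210.0 RPKM in naive Tregs, without overlap (log2 difference −0.74, SE 0.19, adjusted p = 0.265).

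Among 10 AKT-level kinases and substrates, 1 had an unadjusted p under 0.05, Tbc1d4, a RAB GTPase-activating protein that AKT phosphorylates in the control of glucose transporter traffic. It was at 12.9, 12.8 and 10.6 RPKM in CML and 30.6, 29.7 and 28.6 RPKM in naive Tregs, with little spread in either group (log2 difference −1.23, SE 0.24, limma adjusted p = 0.145). Foxo1, the transcription factor that AKT keeps out of the nucleus, was at 69.2, 42.5 and 77.7 RPKM in CML and 86.9, 110.4 and 79.5 RPKM in naive Tregs. Its groups did not overlap, but the nearest libraries were close (log2 difference −0.57, SE 0.26, limma adjusted p = 0.532, and −0.31 without CML replicate 2).

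Among the 9 tested partners in the mTOR complexes, 0 passed the unadjusted rule and the median log2 difference was 0.15. Rictor, the partner that defines mTORC2, was at 23.0 ± 3.40 RPKM in CML and 27.5 ± 2.77 RPKM in naive Tregs (SD, n = 3 each; log2 difference −0.25, limma adjusted p = 0.721). Whether Rptor differed from its partners was not tested, and the within-library ratio above is a description. On the TSC-RHEB-AMPK axis, 1 of 13 genes passed the unadjusted rule, the low-level RHEB relative Rhebl1, at 1.17, 0 and 0.780 RPKM in CML and 2.06, 5.49 and 4.94 RPKM in naive Tregs (log2 difference −1.64, SE 0.57, adjusted p = 0.415). Tsc2, the partner of Tsc1, was at 16.4 ± 6.84 RPKM in CML and 16.6 ± 2.16 RPKM in naive Tregs (log2 difference −0.08, limma adjusted p = 0.951, and 0.06 under quantile normalization).

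Among 24 amino acid sensing genes upstream of mTORC1, 1 was lower and 1 higher at the unadjusted threshold. Sesn1, a stress-induced leucine-sensing protein that restrains mTORC1, was at 30.045, 32.4 and 34.3 RPKM in CML and 73.1, 79.3 and 68.6 RPKM in naive Tregs (log2 difference −1.17, SE 0.17, limma adjusted p = 0.0707). Its adjusted p was 0.0371 with library weights and 0.0492 after quantile normalization, and above 0.05 under the other 14 alternatives. Lamtor4, a subunit of the Ragulator anchor that holds mTORC1 at lysosomes, was at 80.6, 92.5 and 91.9 RPKM in CML and 48.2, 60.4 and 44.4 RPKM in naive Tregs (log2 difference 0.79, SE 0.18, adjusted p = 0.238). Among 11 mTORC1 substrates, 1 passed the unadjusted rule: Lpin1, a phosphatidate phosphatase kept out of the nucleus by mTORC1, was at 9.64, 8.09 and 7.43 RPKM in CML and 17.5, 16.8 and 18.1 RPKM in naive Tregs (log2 difference −0.98, SE 0.28, adjusted p = 0.309).

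The FOXO-induced genes had the lowest median of the lists, −0.85. At an unadjusted limma p under 0.05 with a fold of at least 1.5, 4 of 9 were lower, against 5.94% of all genes tested. Not all of the list went this way: 6 point estimates were lower and 3 were higher in CML, the 3 at log2 differences of 0.08 to 0.09 with overlapping groups. Klf2, a transcription factor of quiescent T cells, was at 91.5, 82.7 and 116 RPKM in CML and 317, 327 and 230.4 RPKM in naive Tregs and fell with a log2 difference of −1.58 (SE 0.20, limma adjusted p = 0.0416). S1pr1, the sphingosine 1-phosphate receptor that lets T cells leave lymphoid tissue, was at 34.4, 27.3 and 30.1 RPKM in CML and 119, 131 and 85.1 RPKM in naive Tregs and fell with a log2 difference of −1.82 (SE 0.22, limma adjusted p = 0.0356). Both calls were lost when any of the 6 libraries was left out, with an adjusted p of 0.0644 to 0.271 for Klf2 and 0.0580 to 0.222 for S1pr1, and each kept its call under 6 of 16 alternatives. Ccr7, a chemokine receptor that brings T cells into lymph nodes, had a log2 difference of −2.10 (SE 0.49, limma adjusted p = 0.238). Klf2, S1pr1 and Ccr7 are also known to be higher in resting than in effector Tregs, and the KLF2 protein is itself known to induce S1pr1.

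**Figure D5:**
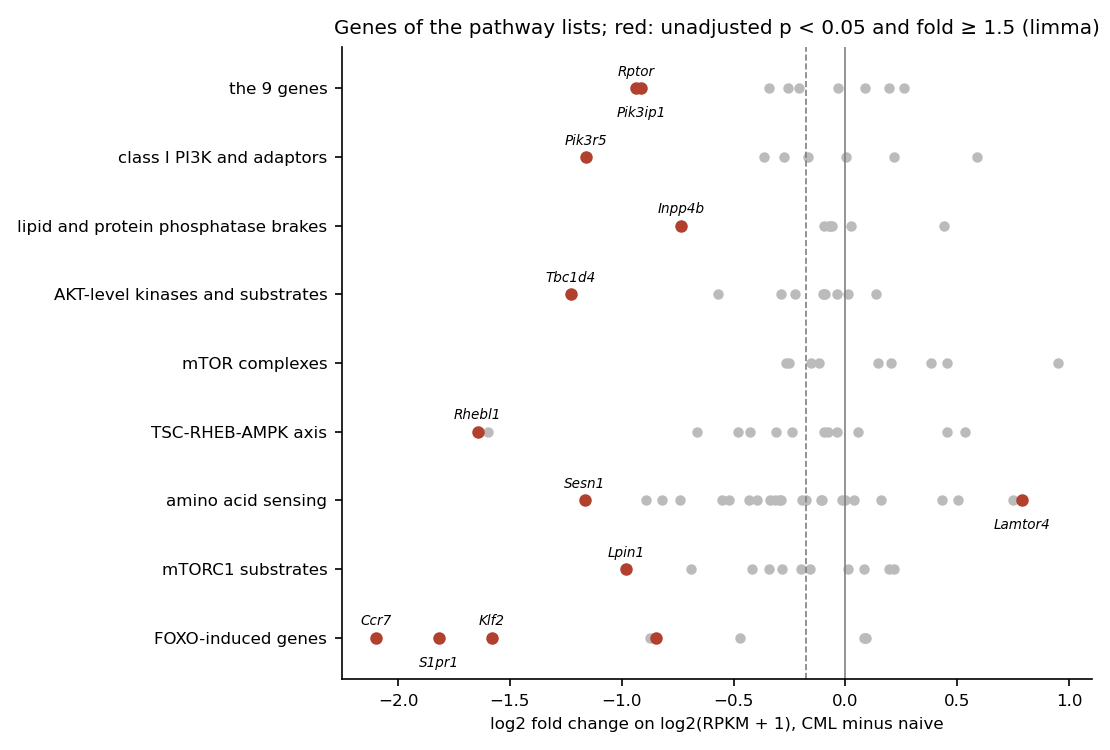
Log2 fold change on log2(RPKM + 1), CML minus naive, of the 9 genes and of the tested genes of 8 lists grouped by role; red points have an unadjusted limma p under 0.05 and a fold of at least 1.5, and the dashed line is the median of all genes tested, −0.18. Red points are few per list, at most 2 outside the FOXO-induced genes (4 of 9), and all but Lamtor4 (0.79) lie below 0.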

How the data were processed

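Libraries of 6 samples (SMART-Seq v4, single-end reads, NextSeq 500) were processed by the authors with SeqMan NGen v.15 and ArrayStar v.15, and the submitters' processing notes name GRCm38 and mm10. The deposited values, 1 per feature and library, were taken as RPKM, which the sources used here do not name: in 1297 short RNA features, 30.7% to 59.8% of the products of value and length lay within 0.05 of a whole multiple of 1 step (10% if spread evenly), and that step gave the estimated depth. The listed minimum of 0.001 was set to 0. Counts were not used here, so in place of the count test named in the study's methods, limma 3.58.1 (R 4.3.3) was fitted to log2(RPKM + 1) of 13923 genes (mean over the 6 libraries of 1 RPKM or more), with a variance trend and Benjamini-Hochberg adjustment over all of them. Calls needed an adjusted p under 0.05 and a fold of at least 1.5. A fold change on this scale understates the change of low genes.

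The table features include 41 repeated names. Coordinates are those of GENCODE M21 (GRCm38), promoters those of RefSeq. The 9 genes and all lists were chosen with earlier results of these data known. Named from the lists were genes that passed the adjusted or the unadjusted rule, together with Rictor, Foxo1 and Tsc2 whatever their values, and, for Pik3ip1, the 5 genes most correlated with it. Some genes that this rule names are not reported here. Of the marker genes, Adgre1 was not found by that symbol. Alternatives changed the pseudocount (0.1, 0.01), the filter (none, or a mean of at least 5 RPKM), the scaling (quantile, 75th percentile, total without the 10 highest features), the variance trend, library weights, a replicate block and each library. Groups came from sample titles. SDs measure the spread among 3 mice per group, taken as 1 library each. SEs, intervals and p-values come from limma, which pools the spread of both groups. It also draws each gene's variance toward a trend over all genes tested.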

Additional observations from a re-analysis of the deposited data

How the results depend on the processing

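None of the 9 genes was called under any of the 16 alternatives, and Pik3ip1 and Rptor were those at an unadjusted p under 0.05 with a fold of at least 1.5 in each. The count over all genes, 24, was 0 with a pseudocount of 0.01 (1009 at the unadjusted rule), 1 with no filter on low values, 54 after quantile normalization, 53 at the same 75th percentile, 48 at the same total without the 10 highest features, 11 with no variance trend and 45 with library weights. Leaving out 1 library gave 0 to 29 (0 without naive replicate 1 or 2, where 745 and 731 passed unadjusted, 3 without naive replicate 3, 8 without CML replicate 3). The unadjusted count, 1190, then ran from 731 to 1758, and that of the pathway lists, 11, from 9 to 17, the 17 without CML replicate 1. The unadjusted split of 363 higher and 827 lower was 629 and 592 after quantile normalization and 683 and 805 without CML replicate 2. The log2 difference of Tsc1 changed sign to 0.084, 0.034 and 0.044 under quantile, 75th percentile and total scaling and ranged from −0.13 to 0.079 with 1 library left out. That of Akt2 was −0.17 with library weights and −0.10 to 0.39 with 1 library left out. That of Tsc2 was 0.061 under quantile scaling and −0.38 to 0.15. The cause of these changes was not tested.

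Replicate numbers are shared between the groups, and the sample titles do not say whether they pair the mice. Same-numbered libraries did not deviate together (correlations of −0.0048, −0.0016 and −0.0192). With 3 libraries per group this cannot settle whether the numbers pair the mice, and the main fit did not pair them. With a replicate block, 1 gene was called in place of 24 and 0 of the 9 genes. The estimated depth of CML replicate 2, 829181 reads, limits the precision of its values for low genes.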

Other observations

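The genes whose pattern over the 6 libraries was most like that of Pik3ip1, by Pearson correlation of log2(RPKM + 1), were Asap1 (r = 0.9994), Rplp1 (0.9945), Snora74a (0.9939), Gm35916 (0.9935) and Ddx5 (0.9919). These are given as a description, since the 6 points share depth and group and 13923 genes were ranked. Asap1, a GTPase-activating protein for ARF proteins, was at 19.5, 20.6 and 26.8 RPKM in CML and 44.4, 44.4 and 34.1 RPKM in naive replicates 1 to 3 (log2 difference −0.85, limma adjusted p = 0.290), so that CML replicate 3 was the highest CML library and naive replicate 3 the lowest naive library for both genes. Among the 9 genes, those with the highest correlation with Pik3ip1 were Pik3cd (r = 0.83), Rptor (0.81), Pik3r1 (0.76) and Mtor (0.72), while Inpp5d (−0.29), Akt1 (−0.43) and Tsc1 (−0.19) were negative.

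The SD in RPKM was larger among CML than among naive mice for 7 of the 9 genes, against 71.8% of all genes tested. The exceptions were Pik3cd and Pik3ip1. An SD in RPKM depends on the level of the gene. Relative to the mean, the coefficient of variation was 17.1% in CML and 14.4% in naive mice for Pik3ip1. For Pik3cd it was 7.47% and 12.4%. By length of the longest transcript, the median log2 fold change was −0.20 under 2000 bases, −0.15 from 2000 to 5000 bases and −0.17 above, the range that holds Rptor, Pik3r1, Mtor and Tsc1, and the share of genes with all CML libraries below all naive ones was 10.1%, 12.0% and 15.9%.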
